A study of Homo sapiens with 4 samples.

Results

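The genes described here encode 10 amino acid transporters of the plasma membrane: SLC7A5, SLC3A2, SLC7A1, SLC7A6, SLC1A4, SLC1A5, SLC38A1, SLC38A2, SLC6A9 and SLC43A1. They were taken by gene symbol from a table of 16057 genes, in which each symbol occurred once, and all 10 had values in every library. The cells were MM.1S, an established human multiple myeloma line grown in RPMI-1640 medium with serum and added glutamine. They received JG342, an inhibitor that binds the HSP70 chaperone away from its nucleotide site, dosed at 350 nM, or DMSO, its solvent, for 26 h. Each treatment had 2 libraries, which the series describes as biological duplicates, and both groups share the line, the medium and the time. The data cover 1 line, 1 dose and 1 time point.

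Amino acids cross the plasma membrane through carriers that differ in substrate and in driving force. SLC7A5 and SLC7A6 are light chains that reach the cell surface bound to the heavy chain SLC3A2, and they exchange one amino acid for another. SLC38A1, SLC38A2 and SLC6A9 are driven by sodium and can concentrate their substrates inside the cell. SLC1A5 and SLC1A4 depend on sodium but work as exchangers of neutral amino acids. Plasma cells and myeloma cells secrete large amounts of immunoglobulin, so their demand for amino acids is high. Several of these genes are known targets of ATF4, the transcription factor of the amino acid response, and of MYC.

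Transcripts of most of these transporters rose with JG342. The 10 were chosen with earlier results of these data known, so their counts beside those of all genes are a description and no test. Of the 10 genes, 7 were higher at an adjusted p under 0.05 in limma's moderated test on log2(TPM + 1), 0 were lower, and 3 did not pass. The fit covered 12042 genes, of which 18.4% passed at that adjusted threshold, 10.8% higher and 7.62% lower. At an unadjusted p under 0.05, limma gave 9 of the 10 higher and 1 lower. Over all 12042 fitted genes it gave 2246 higher and 1798 lower at that unadjusted threshold. A called rise of at least 1 on the log2 scale was found for 4 of the 10 transporters and 2.31% of the fitted genes. The median log2 fold change was 0.94 for the 10 transporters and 0.03 for all fitted genes. In every one of the 10 genes the JG342 and DMSO libraries did not overlap, 9 higher and 1 lower, whereas 34.0% of fitted genes were higher and 28.2% lower without overlap.

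The genome-wide background moved with single DMSO libraries. It was 1304 genes higher and 917 lower with all libraries, 662 and 398 without DMSO replicate 1, and 581 and 192 without DMSO replicate 2. The count of the 10 transporters that passed as higher stayed between 7 and 8 whichever library was left out. With the replicate number as a block 34.9% of fitted genes passed, and all 10 transporters did, 9 higher and 1 lower.

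Summed over the 10 genes, the transporter transcripts amounted to 1101 and 1352 TPM in DMSO replicates 1 and 2, and to 2277 and 2290 TPM in JG342 replicates 1 and 2. TPM is a share of all transcripts in a library, corrected for transcript length. The sum was thus higher in both treated libraries, although 2 libraries against 2 cannot give an exact two-sided permutation p below 0.333, and 0.333 was the value found. Library totals lay between 994463 and 994718 TPM, and the median of the fitted genes lay between 20.4 and 22.1 TPM. Since the RNA came from whole cell pellets, a change in all cells and a larger change in a part of them cannot be told apart.

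**Figure D1:**
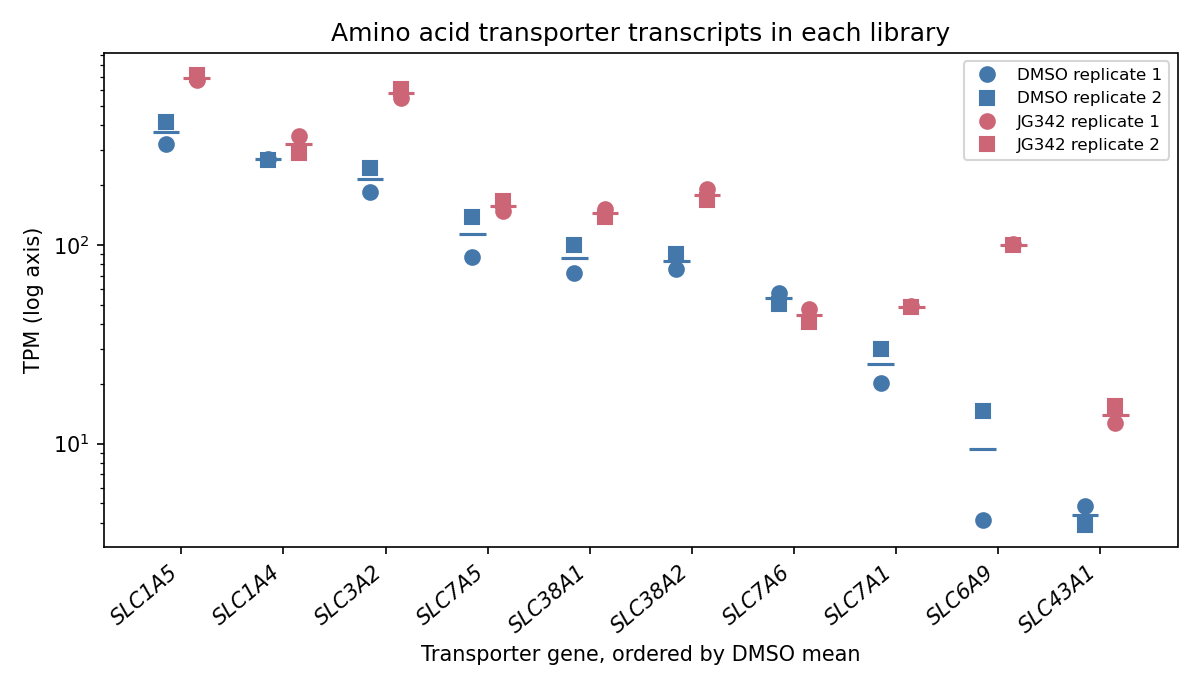
TPM on a log axis for each of the 10 transporter genes, ordered by DMSO mean, with 1 point per library and a short line at the mean of each treatment (n = 2). The JG342 points lie above the DMSO points for 9 genes and below them for SLC7A6, and the widest gap is that of SLC6A9.

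The libraries carried the transcripts of plasma cells. All 8 plasma cell markers listed (SDC1, CD38, TNFRSF17, IRF4, PRDM1, XBP1, SLAMF7 and MZB1) were present, between 22.0 and 1566 TPM, with a summed level of 4187 to 4928 TPM in DMSO and 4598 to 4936 TPM in JG342. Of the 8, IRF4 rose by 0.77 ± 0.09 on the log2 scale (limma adjusted p 0.000986), PRDM1 rose by 0.36 ± 0.10 (0.0410) and TNFRSF17 fell by −0.44 ± 0.13 (0.0472). The PRDM1 call was lost without DMSO replicate 1 (0.46), DMSO replicate 2 (0.26) or JG342 replicate 1 (0.31). It was also lost with median scaling (limma adjusted p 0.0974), without a filter on low values (0.1) and without a variance trend (0.111). The TNFRSF17 call was lost without DMSO replicate 1 (−0.25) or JG342 replicate 2 (−0.36). It was also lost with median scaling (limma adjusted p 0.0554), quantile normalization (0.0889), no filter on low values (0.159) and no variance trend (0.122). SDC1 and SLAMF7 did not pass (limma adjusted p 0.292 and 0.208), and both passed with the replicate block (0.00764 and 0.000422). The B cell factor PAX5 was at 0.03 and 0.26 TPM in DMSO and at 0.08 and 0.13 TPM in JG342. Of the T cell, monocyte, fibroblast and epithelial markers in the table, CD3E, LYZ and KRT18 reached a mean of 1 TPM. LYZ was between 36.96 and 46.16 TPM, CD3E between 3.21 and 7.70 TPM and KRT18 between 1.24 and 2.90 TPM, and none of these 3 passed the test between treatments. CD3E was lower without overlap in JG342 (−0.55 ± 0.23, limma adjusted p 0.132) and passed with the replicate block (0.00753), but not with median scaling added (0.0559). The part of these markers in the transporter changes was not tested.

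Since 7 of the 10 transporters rose, the start regions of all 10 in RefSeq (GRCh38.p14) were searched on both strands for the core of the C/EBP-ATF response element, which ATF4 binds with its partners, and for the E-box that MYC binds. The letters searched were TGATGNAA for the first and CACGTG for the second. All 10 genes had an entry, 17 start windows in all, each running from 250 bases before a start to 50 bases after its first base. The first motif was found in at least 1 window of 5 of the 10 genes, against 4.46% of all 27305 genes, and in 5 of the 17 windows, against 3.62% of all 35116 windows. The E-box was found in 3 of the 10 genes, against 8.77% of all genes, and in 3 of the 17 windows, against 7.26% of all windows. The transporters have more windows per gene than the table as a whole. They were also chosen with earlier results of these data known, and several are known targets of ATF4 and of MYC. Their shares of windows and genes with these letters are therefore no test of either factor. The stretches that hold these letters run 5′ to 3′ on the gene's strand, with the matched letters in capitals. Which of the alternative starts is used in MM.1S was not measured.
SLC1A5, response element, chr19:46784858-46784957, minus strand: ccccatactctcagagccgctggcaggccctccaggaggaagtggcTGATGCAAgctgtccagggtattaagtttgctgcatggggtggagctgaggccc
SLC1A4, response element, chr2:64989318-64989417, plus strand: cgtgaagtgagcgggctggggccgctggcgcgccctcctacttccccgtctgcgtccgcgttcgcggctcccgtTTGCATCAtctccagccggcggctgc
SLC7A1, response element, chr13:29595670-29595769, minus strand: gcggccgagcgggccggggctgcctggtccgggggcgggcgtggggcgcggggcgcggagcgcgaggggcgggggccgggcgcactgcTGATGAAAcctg
SLC38A1, response element, chr12:46266498-46266597, minus strand: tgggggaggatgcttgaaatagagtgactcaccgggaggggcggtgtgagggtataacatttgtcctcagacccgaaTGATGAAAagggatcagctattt
SLC3A2, response element, chr11:62881719-62881748, plus strand: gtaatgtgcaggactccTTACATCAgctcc
SLC7A5, E-box, chr16:87869585-87869684, minus strand: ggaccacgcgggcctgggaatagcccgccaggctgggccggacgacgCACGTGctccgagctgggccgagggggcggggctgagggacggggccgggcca
SLC1A5, E-box, chr19:46787291-46787390, minus strand: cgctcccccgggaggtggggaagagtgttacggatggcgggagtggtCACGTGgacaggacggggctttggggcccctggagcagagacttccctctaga
SLC43A1, E-box, chr11:57515762-57515861, minus strand: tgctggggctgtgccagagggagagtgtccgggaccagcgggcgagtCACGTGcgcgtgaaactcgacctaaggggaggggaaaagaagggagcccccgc

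These stretches differ in where the letters lie. In SLC1A5 the response element core was 97 to 90 bases before one start, and the E-box 50 to 45 bases before another. In SLC1A4 and SLC38A1 the core crossed the start itself, and in SLC7A1 and SLC3A2 it lay after the start, at bases 8 to 15 and 38 to 45. SLC38A2, SLC6A9 and SLC7A6 held neither set of letters in the windows searched. Of the 5 genes with the core, SLC3A2, SLC7A1, SLC1A5 and SLC38A1 passed as higher and SLC1A4 did not pass. Among the genes without it, SLC38A2, SLC43A1 and SLC6A9 passed as higher, and SLC7A5 and SLC7A6 did not pass. SLC6A9 had the largest rise of the 10 and only 1 window searched. The part of these letters in the transporter changes was not tested.

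SLC3A2 encodes CD98 heavy chain (4F2hc), the single-pass glycoprotein that carries the light chains to the cell surface. Its transcript was at 184 and 243 TPM in DMSO replicates 1 and 2, and at 548 and 611 TPM in JG342 replicates 1 and 2. Both treated libraries were far above both controls. The mean rose 2.71-fold, a log2 fold change of 1.45 ± 0.13 (SE, n = 2 per treatment; limma adjusted p 0.000323), which was the smallest unadjusted p among the 10 genes and place 74 among all fitted genes. SLC3A2 passed under every alternative processing tried.

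SLC7A5 (LAT1) is the light chain that brings leucine and other large neutral amino acids into the cell in exchange for glutamine. Its levels were 87.3 and 138.8 TPM in DMSO and 149 and 166 TPM in JG342, so the groups did not overlap but DMSO replicate 2 came close to JG342 replicate 1. The difference of 0.51 ± 0.19 (SE) on the log2 scale did not pass (limma adjusted p 0.0890), with a 95% interval from 0.09 to 0.93. The value depended on the DMSO library kept: it was 0.84 without DMSO replicate 2 (limma adjusted p 0.0117) and 0.18 without DMSO replicate 1 (0.449). With the replicate number as a block SLC7A5 passed (limma adjusted p 2.03e-07), in a fit that sets each variance by expression level alone. It also passed with block and median scaling together (limma adjusted p 0.0117). The pseudogenes SLC7A5P1 and SLC7A5P2 match 11.8% of the SLC7A5 transcript at 96.6% and 96.3% identity, so a part of its reads may be shared.

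SLC7A6 (y+LAT2), a light chain that exports arginine in exchange for glutamine and sodium, was the 1 member with lower levels after JG342. It was at 57.4 and 50.5 TPM in DMSO and at 47.7 and 41.0 TPM in JG342. The log2 fold change of −0.28 ± 0.12 (SE) did not pass (limma adjusted p 0.145; 95% interval −0.56 to −0.0028), and it did with the replicate block (0.0288; 0.0133 with median scaling added). SLC7A6OS, on the opposite strand, overlaps 53.5% of the SLC7A6 transcript, and reads of the pair cannot be told apart without strand information. SLC7A6OS itself had a log2 fold change of 0.02 ± 0.12 (limma adjusted p 0.942).

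The heavy chain and the sum of its light chains moved by unequal amounts. The light chains of SLC3A2 with values in the table (SLC7A5, SLC7A6, SLC7A7, SLC7A8 and SLC7A11, 5 genes) summed to 155 and 202 TPM in DMSO and to 219 and 228 TPM in JG342. The ratio of SLC3A2 to that sum was 1.193 and 1.205 with DMSO and 2.51 and 2.68 with JG342. The DMSO ratios were nearly equal although both parts of the ratio differed between those libraries. The exact two-sided permutation p was 0.333, the smallest that 2 against 2 allows. The sum does not describe each light chain: SLC7A11, of low level, rose by 1.59 ± 0.32 on the log2 scale, against 1.45 ± 0.13 for SLC3A2. SLC7A5, SLC7A6 and SLC7A7 did not pass, and SLC7A8 was not fitted. The ratio of SLC7A5 to SLC7A6 was 1.52 and 2.75 in DMSO and 3.12 and 4.06 in JG342, with DMSO replicate 2 nearer to JG342 replicate 1 than to DMSO replicate 1.

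SLC7A1 (CAT1) takes up arginine, lysine and ornithine without a heavy chain. Its transcript was at 20.2 and 30.0 TPM in DMSO and at 49.3 and 48.4 TPM in JG342, a tight treated pair above a wider control pair. It rose 1.95-fold, by 0.96 ± 0.17 on the log2 scale (limma adjusted p 0.00681). Without a filter on low values the SE was 0.196 and the adjusted p 0.0642.

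SLC1A5 (ASCT2), a sodium-dependent exchanger of glutamine and small neutral amino acids, had the highest level of the 10 genes in both treatments. Its values were 324 and 413 TPM in DMSO and 674 and 712 TPM in JG342, which placed it at rank 370 of the table with DMSO and at rank 181 with JG342. The rise was 1.88-fold, or 0.92 ± 0.12 on the log2 scale (limma adjusted p 0.00202), and it passed under every alternative tried. Its share of the summed level of the 10 genes was 29.4% and 30.6% in DMSO and 29.6% and 31.1% in JG342, so it rose at the pace of the sum.

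SLC1A4 (ASCT1) is the paralog of SLC1A5 that carries alanine, serine, cysteine and threonine. It was at 272 and 268 TPM in DMSO, the closest pair of controls in this group, and at 353 and 291 TPM in JG342. The difference of 0.25 ± 0.11 (SE) on the log2 scale did not pass (limma adjusted p 0.145), with a 95% interval from 0.0029 to 0.50. It passed without JG342 replicate 2 (0.39, adjusted p 0.0439) and with the replicate block (0.00879), but not with block and median scaling together (0.123). The ratio of SLC1A5 to SLC1A4 was 1.19 and 1.54 in DMSO and 1.91 and 2.44 in JG342, without overlap (exact two-sided permutation p 0.333, the smallest possible). The share of SLC1A4 in the summed level of the 10 genes was 24.7% and 19.8% in DMSO and 15.5% and 12.7% in JG342.

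SLC38A2 (SNAT2) is the sodium-coupled carrier of small neutral amino acids that cells raise when amino acids run short. It was at 76.0 and 90.3 TPM in DMSO and at 191 and 167 TPM in JG342. The rise was 2.15-fold, or 1.10 ± 0.12 on the log2 scale (limma adjusted p 0.000743), and it passed under every alternative tried. SLC38A1 (SNAT1), a glutamine carrier whose gene is the next protein-coding gene beside SLC38A2 on chromosome 12, was at 71.8 and 99.9 TPM in DMSO and at 151 and 138 TPM in JG342. SLC38A1 rose 1.69-fold, by 0.77 ± 0.15 (limma adjusted p 0.00974; 0.0764 without a filter on low values). The 2 genes had overlapping levels with DMSO and did not overlap with JG342, where SLC38A2 was higher.

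Another carrier of this family, SLC38A5 (SNAT5), went the other way. It carries glutamine, serine and glycine, is no member of the 10, and was the highest SLC38 gene in DMSO, at 325 and 315 TPM, against 217 and 207 TPM in JG342. Its fall of −0.59 ± 0.09 on the log2 scale passed (limma adjusted p 0.00341). The ratio of SLC38A5 to SLC38A2 went from 4.28 and 3.49 to 1.14 and 1.24. The sum of SLC38A1, SLC38A2 and SLC38A5 was 473 and 506 TPM in DMSO and 560 and 513 TPM in JG342, with DMSO replicate 2 and JG342 replicate 2 nearly equal, so the make-up of this trio differed more between treatments than its total.

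**Figure D2:**
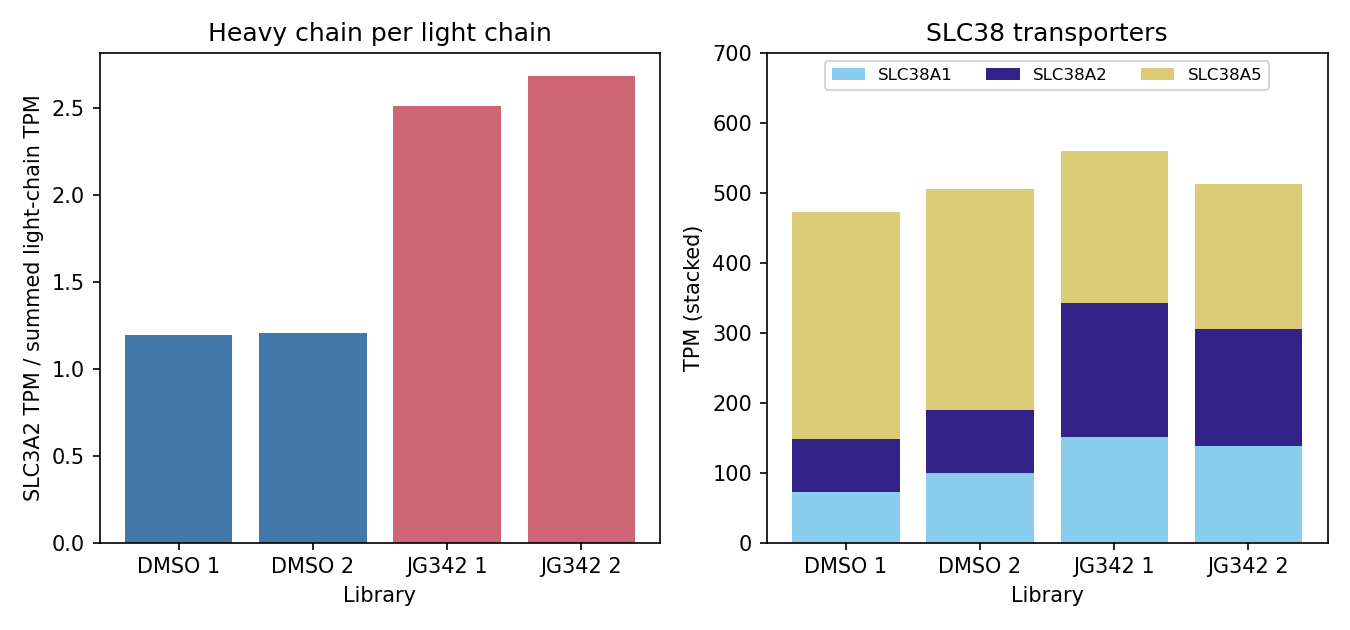
Left, the ratio of SLC3A2 TPM to the summed TPM of 5 light chains in each library, with bars from 0. Right, stacked TPM of SLC38A1, SLC38A2 and SLC38A5 in each library. The ratio goes from 1.193 and 1.205 with DMSO to 2.51 and 2.68 with JG342, and the SLC38A5 segment shrinks while the others grow.

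SLC6A9 (GlyT1) couples the uptake of glycine to sodium and chloride. It was at 4.13 and 14.6 TPM in DMSO and at 100.4 and 99.8 TPM in JG342. The treated libraries were nearly identical, and the control libraries differed more on the log2 scale than those of any other gene of the 10. The mean rose 10.7-fold, and the log2 fold change was 3.50 ± 0.40 (limma adjusted p 0.000981), the 5th largest of all fitted genes. It was 2.70 without DMSO replicate 1 and 4.30 without DMSO replicate 2, and passed in both cases. SLC6A9 moved from rank 9 to rank 7 among the 10 genes, from 0.375% and 1.08% of their summed level to 4.41% and 4.36%.

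SLC43A1 (LAT3) carries leucine, isoleucine, valine, phenylalanine and methionine by facilitated diffusion and needs neither sodium nor a heavy chain. It had the lowest mean of the 10 genes in both treatments, at 4.84 and 3.90 TPM in DMSO and at 12.6 and 15.4 TPM in JG342. It rose 3.20-fold, by 1.48 ± 0.17 on the log2 scale (limma adjusted p 0.00102), and passed under every alternative tried. Its paralog SLC43A2 (LAT4), at 7.62 and 8.53 TPM in DMSO, was at 8.15 and 8.59 TPM in JG342 (log2 fold change 0.05 ± 0.15, limma adjusted p 0.856, 95% interval −0.29 to 0.39). SLC43A1 was below SLC43A2 with DMSO, at ratios of 0.635 and 0.457, and above it with JG342, at ratios of 1.55 and 1.79.

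The order of levels differed between treatments, with SLC1A5 first and SLC43A1 last by mean in both. With DMSO it ran SLC1A5, SLC1A4, SLC3A2, SLC7A5, SLC38A1, SLC38A2, SLC7A6, SLC7A1, SLC6A9 and SLC43A1. SLC7A5 and SLC38A1 overlapped there, as did SLC38A1 and SLC38A2, and SLC6A9 and SLC43A1. With JG342 it ran SLC1A5, SLC3A2, SLC1A4, SLC38A2, SLC7A5, SLC38A1, SLC6A9, SLC7A1, SLC7A6 and SLC43A1, and of these neighbours SLC7A5 and SLC38A1 overlapped. Levels between genes depend on the transcript length by which the authors divided, and the table names 1 RefSeq transcript per gene.

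The DMSO libraries differed from each other for several of these genes. Of the 10, 7 were higher in DMSO replicate 2 than in replicate 1, a share near the 58.9% of all fitted genes, with SLC6A9 1.60 and SLC7A5 0.66 higher on the log2 scale. SLC7A6, SLC1A4 and SLC43A1 were lower, by −0.18, −0.02 and −0.25. Between the JG342 libraries the differences were smaller for SLC6A9 (−0.0083) and SLC7A5 (0.16). Both pairs of same-numbered libraries gave the same sign for all 10 genes, as must follow where the groups do not overlap. The log2 fold change was larger in pair 1 for 8 of the 9 genes with higher levels, a count not made over all fitted genes. The exception was SLC43A1, with 1.22 in pair 1 and 1.74 in pair 2.

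**Figure D3:**
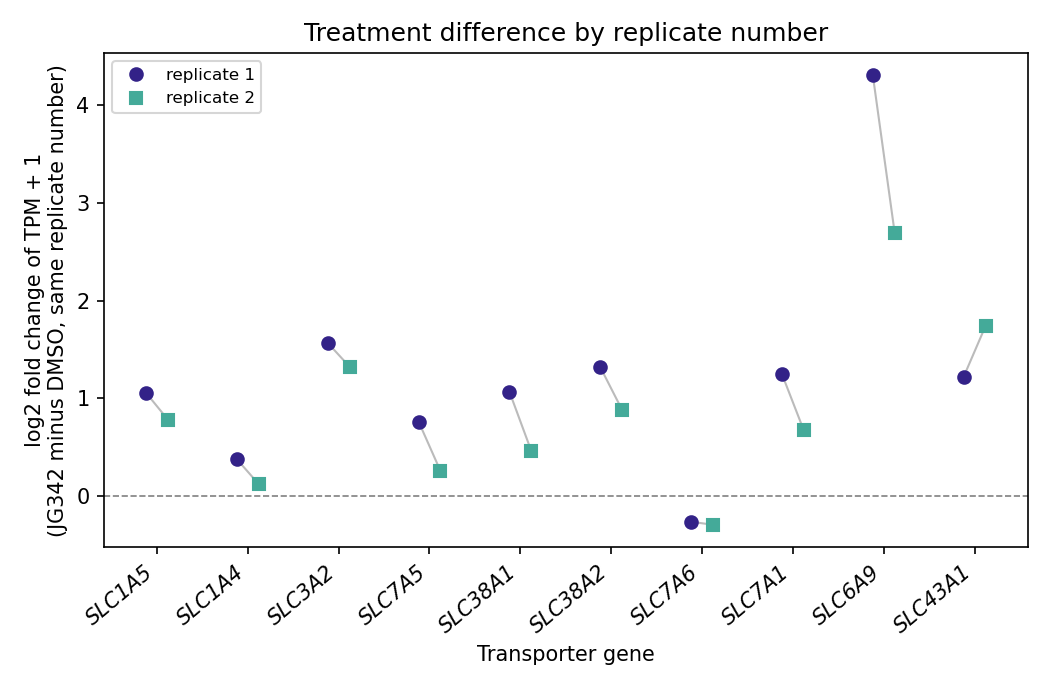
Log2 fold change of TPM + 1 between the JG342 and DMSO libraries of the same replicate number, for each of the 10 genes, with circles for replicate 1 and squares for replicate 2 joined by a line. SLC6A9 has the widest gap, 4.31 against 2.70, and every gene keeps its side of 0, as must follow where the groups do not overlap.

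ATF4 had its lowest value in DMSO replicate 1. Its transcript was at 420 and 788 TPM in DMSO and at 1269 and 1476 TPM in JG342. It was higher in DMSO replicate 2 than in replicate 1, as were 7 of the 10 transporters and 58.9% of all fitted genes. ATF4 rose by 1.25 ± 0.24 on the log2 scale (limma adjusted p 0.00900, and 0.0917 without a filter on low values). MYC moved in the opposite direction, from 285 and 291 TPM to 181 and 182 TPM, a fall of −0.66 ± 0.09 (limma adjusted p 0.00206). The part of either in the transporter changes was not tested. NEDD4 and NEDD4L, ubiquitin ligases that act on membrane transporters, did not pass, at 0.05 ± 0.18 and −0.26 ± 0.17 (limma adjusted p 0.886 and 0.314). LAPTM4B, a lysosomal protein that recruits the SLC3A2 and SLC7A5 pair, had a difference of −0.35 ± 0.15 (limma adjusted p 0.142; 0.0300 with the replicate block).

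Other plasma membrane carriers of amino acids did not share a direction. Of 27 listed, 19 were in the table and 10 had a mean of at least 1 TPM. Among these 10, 2 rose and 3 fell, with a median log2 fold change of 0.0043. Thus 5 of the 10 passed, against 18.4% of all fitted genes. This list was also chosen with earlier results of these data known, so its count is a description and no test. SLC7A11, the light chain that imports cystine, rose from 2.18 and 6.17 TPM to 13.2 and 13.6 TPM, by 1.59 ± 0.32 (limma adjusted p 0.0104), with a low DMSO replicate 1 as in SLC6A9. It was 1.00 without DMSO replicate 1 and 2.18 without DMSO replicate 2, and passed in both cases. SLC3A1, the heavy chain of the cystine and dibasic amino acid carrier, rose by 0.88 ± 0.19 (0.0159), but not without DMSO replicate 2 (0.71, adjusted p 0.110) or without JG342 replicate 1 (0.66, adjusted p 0.0638). Neither passed without a filter on low values (0.0938 and 0.0924).

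The carriers that fell were SLC38A5, described above, SLC6A6 and SLC16A10. SLC6A6, which takes up taurine, went from 13.5 and 14.0 TPM to 6.71 and 6.37 TPM, by −0.97 ± 0.14 (limma adjusted p 0.00299). SLC16A10, a carrier of aromatic amino acids, fell by −0.72 ± 0.17 (0.0222). That call was lost without DMSO replicate 1 (−0.82, adjusted p 0.0638), DMSO replicate 2 (−0.63, 0.151) or JG342 replicate 1 (−0.63, 0.0717), and without a filter on low values (0.0781).

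Of the amino acid transporters listed as lysosomal, 1 of 9 passed, or 11.1%, against 18.4% of all fitted genes. All 9 were fitted, with a median log2 fold change of −0.13. In limma 0 were higher, also at an unadjusted p under 0.05, and 1 was lower, SLC36A4, by −0.61 ± 0.17 (adjusted p 0.0385). SLC36A4 did not pass without DMSO replicate 1 (−0.55, adjusted p 0.178), DMSO replicate 2 (−0.68, 0.121) or JG342 replicate 2 (−0.42, 0.139). SLC38A9, the arginine sensor and carrier of the lysosome, had 20.9 and 18.8 TPM in DMSO and 18.1 and 17.7 TPM in JG342 (−0.14 ± 0.13, adjusted p 0.470).

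**Figure D4:**
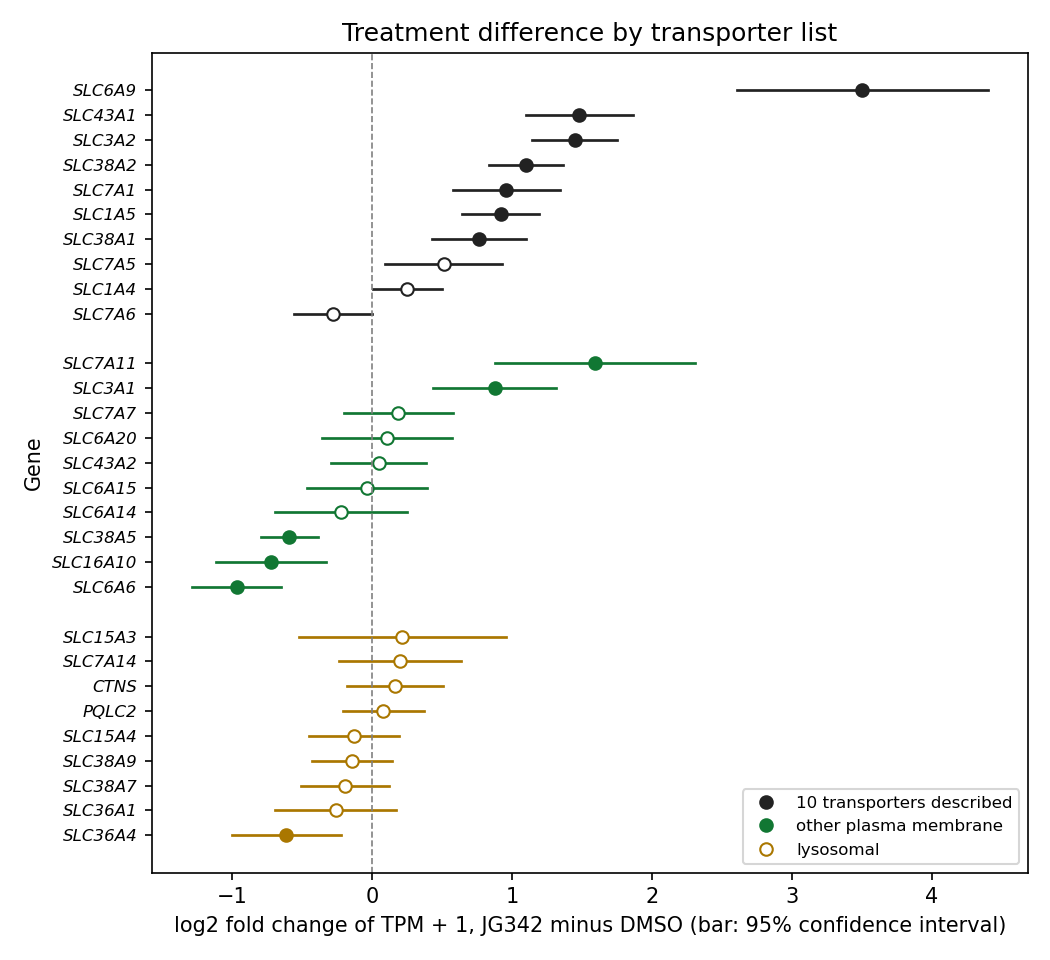
Log2 fold change of TPM + 1 between JG342 and DMSO with its 95% confidence interval from limma (n = 2 per treatment), for the 10 transporters described and for the fitted genes of the other plasma membrane and lysosomal lists. Filled points passed an adjusted p of 0.05: 7 of the first list, all higher, 5 of the second in both directions and 1 of the third.

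Among the remaining solute carrier genes, 195 of 279 were fitted, 16 passed as higher and 11 as lower, and the median log2 fold change was 0.05. The share that passed was 13.8%, against 18.4% of all fitted genes. These counts were 8 and 3 without DMSO replicate 1, and 7 and 2 without DMSO replicate 2.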

How the data were processed

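RNA from 4 MM.1S pellets was sequenced on a BGISEQ instrument by a service provider, per the labels' protocols. The authors deposited 1 value per gene and library, taken here as TPM because the libraries sum to nearly the same total, 994463 to 994718. HISAT2 2.0.4, Bowtie2 2.2.5 and RSEM 1.2.12 are named in the submitters' processing notes. Build, annotation and filters are not given in the sources used here. TPM does not record depth, so no counting intervals are given.

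Values were transformed to log2(TPM + 1), which understates changes of low genes. Genes whose mean over the libraries reached 1 TPM (12042) were fitted with limma 3.58.1 in R 4.3.3 (treatment only, eBayes with trend, Benjamini-Hochberg over all fitted genes, two-sided, threshold 0.05), after the procedure was tested on simulated data. Each gene had 2 residual and 6.89 prior degrees of freedom. Same-numbered libraries share a prefix in their descriptions. Between replicates, 5 of the 10 members differed in the same direction in both treatments. Over all fitted genes the deviations of same-numbered libraries correlated at r = 0.275 (rho 0.304), so a fit with the replicate number as a block was also made. That fit had an infinite prior, which sets each variance by expression level alone. Near copies were searched with BLAST 2.17.0 at 95% identity in GENCODE release 29.

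Members and lists were chosen with earlier results of these data known. Named genes were the 10 members, called genes of the other lists, 5 regulators and partners, and the 3 nearest genes to each of the 3 members with the smallest p. Ratios, sums, SLC43A2, SLC38A9 and SLC7A6OS were added after values were seen. Alternatives were other pseudocounts, filters, scalings, variance models, the block and leaving out each library.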

Additional observations from a re-analysis of the deposited data

How the results depend on the processing

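All 10 transporters kept their direction under each of 13 alternatives, and SLC3A2, SLC1A5, SLC38A2, SLC6A9 and SLC43A1 passed under all 13. SLC7A1 and SLC38A1 passed under 12, losing their calls without a filter on low values (log2 fold changes 0.96 and 0.77, with SEs of 0.196 and 0.172). With the replicate block SLC7A5 (0.51), SLC7A6 (−0.28) and SLC1A4 (0.25) passed, so that 1 transporter was called lower in place of 0; with block and median scaling SLC7A5 (0.44) and SLC7A6 (−0.35) passed, again 1 lower. The block changed no other call of the 10. Leaving out 1 library moved SLC7A5 between 0.18 and 0.84 and SLC1A4 between 0.11 and 0.39. Because the groups of all 10 genes did not overlap, leaving out 1 library or changing the pseudocount could not reverse a direction. The filters, the block and the variance model leave the estimate as it is, so only the alternatives with scaling tested the direction.

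Counts over all genes moved more. Without the filter, 533 genes were higher and 295 lower, with 0 of the other plasma membrane list higher, 0 lysosomal genes lower, and 6 and 7 of the remaining solute carriers. With the block 2316 were higher and 1891 lower (36 and 24 solute carriers), with block and median scaling 2310 were lower (30 solute carriers), and without a variance trend 526 were lower (6 solute carriers, 0 lysosomal). Leaving out 1 library gave 581 to 1144 higher and 192 to 761 lower genes, 1 to 2 higher genes of the other plasma membrane list, 0 to 1 lower lysosomal genes, and 7 to 16 higher and 2 to 12 lower solute carriers. A lone library was then assumed to vary like the other treatment's. Over all fitted genes, scaling shifted the median change from 0.03 to −0.03. The cause of these shifts was not tested. With 2 libraries per treatment, differences such as those of SLC7A5, SLC7A6 and SLC1A4 are near the limit of detection.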

Other observations

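Genes whose values followed those of the 3 transporters with the smallest p were found by the distance between log2(TPM + 1) values centred on their mean over the 4 libraries. With 4 libraries such likeness is a description of these samples. For SLC3A2 the nearest were TCEA1, a transcription elongation factor (distance 0.0509), SDC3, a syndecan of low level (0.0553), and TSC22D3, the glucocorticoid-induced leucine zipper (0.106). TCEA1 was at 130 and 165 TPM in DMSO and at 377 and 430 TPM in JG342, a rise of 1.45 ± 0.13 on the log2 scale (limma adjusted p 0.000241).

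For SLC38A2 the nearest were HSPA13, an HSP70 family member of the endoplasmic reticulum (0.0834), CLDN12, a claudin (0.102), and CYP2R1, a vitamin D 25-hydroxylase (0.111). CYP2R1 rose from 31.6 and 34.2 TPM to 73.0 and 66.7 TPM, by 1.06 ± 0.11 (limma adjusted p 0.000608). Its treated library numbered 1 was the higher of the pair as in SLC38A2, a likeness that the choice by distance favours. The neighbours of SLC6A9 lay farther away. They were ASS1, which makes argininosuccinate (0.435), DDIT3, the stress factor CHOP (0.507), and PIP5KL1 (0.604). All 3 had a DMSO replicate 1 well below DMSO replicate 2 as in SLC6A9, again a likeness that the choice by distance favours. The values were 1.91 and 5.56 TPM for ASS1, 20.7 and 41.9 TPM for DDIT3 and 7.73 and 17.2 TPM for PIP5KL1.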
